A study of Mus musculus with 15 samples.

Results

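Retinoic acid is the signalling form of vitamin A, and the 9 genes described here make it, break it down, or carry it and its precursor. They are Rbp4 and Stra6 (transport and uptake of retinol), Aldh1a1, Aldh1a2 and Aldh1a3 (synthesis), Crabp1 and Crabp2 (binding inside the cell), and Cyp26a1 and Cyp26b1 (breakdown). They were chosen by name as a list, and all probe sets that the array annotation gives to each of them alone were taken. That gave 11 probe sets for 9 of the 18193 genes with a single name on the array, 3 for Aldh1a3 and 1 for each other gene. All 9 genes were tested, with no filter on low values.

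RNA was pooled from newborn (postnatal day 1) mouse pituitaries, with 1 Affymetrix mouse expression array for each pool. Described here are 5 pools of Pit1+/+ and 5 pools of Pit1dw/dw mice, all on the DW/J background and on the same high fat chow. The dw allele is the Snell dwarf mutation of Pit1, the POU factor that growth hormone, prolactin and thyrotropin cells need. The sources used here do not say how many pituitaries went into a pool. The labels call the pools biological replicates, and p-values for group differences set the difference against the spread between pools.

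As background, retinol travels in blood bound to the protein made from Rbp4, and the membrane receptor made from Stra6 can take it into cells. It is oxidised to retinal and then, by the retinaldehyde dehydrogenases of the Aldh1a family, to retinoic acid. Retinoic acid binds nuclear receptors (RARs, paired with RXRs) on DNA. The Crabp proteins bind it in the cytoplasm, and the Cyp26 enzymes, cytochromes P450, oxidise it and so clear it. Retinoic acid made by Aldh1a enzymes is known from the embryonic pituitary and the mesenchyme around it.

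Promoter sequence was at hand for 7 of the 9 genes, from RefSeq (GRCm38.p6), as the 250 bases before each start. The Cyp26a1 window (chr19:37697558-37697807, plus strand) is shown because it holds a repeat known as a retinoic acid response element. Of the Stra6 windows, 1 (chr9:58129099-58129348, plus strand) is shown because it holds a motif of the kind Pit1 binds. Capitals mark these matches: in Cyp26a1 a DR5, a pair of receptor core motifs in the same direction spaced by 5 bases, and in Stra6 ATGNATA, part of the Pit1 consensus.
Cyp26a1 promoter: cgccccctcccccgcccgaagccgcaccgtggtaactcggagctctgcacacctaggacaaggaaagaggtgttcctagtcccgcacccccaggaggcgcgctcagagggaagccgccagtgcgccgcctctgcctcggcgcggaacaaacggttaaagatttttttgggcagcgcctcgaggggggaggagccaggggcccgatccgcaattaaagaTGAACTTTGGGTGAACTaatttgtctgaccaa
Stra6 promoter: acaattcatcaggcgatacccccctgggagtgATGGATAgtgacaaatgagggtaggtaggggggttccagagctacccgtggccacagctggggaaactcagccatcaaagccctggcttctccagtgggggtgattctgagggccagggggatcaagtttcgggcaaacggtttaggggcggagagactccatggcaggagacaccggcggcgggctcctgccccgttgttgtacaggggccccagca

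The receptor core motif was searched as AGGTCA, and likewise as the variant AGTTCA, the variant GGGTCA and the variant GGTTCA, on both strands. Cyp26a1 holds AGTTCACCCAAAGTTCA on the minus strand, shown above as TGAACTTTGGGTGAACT, from base -32 to base -16 of its start. A DR5 was in 0.0883% of the 32851 such windows in the table and in no other window of a member. The same pair spaced by 2 bases (DR2) was in no member's window and in 0.174% of all. A single core motif, which is part of each DR5 match, was in 38.6% of all windows. Among the members it was in the Cyp26a1 window and in a window each of Aldh1a1 and Rbp4. Aldh1a1, Rbp4 and Stra6 have several windows, and the shares given are per window, not per gene. The Stra6 match to ATGNATA lies from base -218 to base -212, and 7.92% of all windows hold this motif. A match is a description of these letters alone. Cyp26a1 and Rbp4 lie near each other on chromosome 19, with 3 protein-coding genes between them (Myof, Cep55 and Ffar4).

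The pools were checked on the hormone genes first. Growth hormone (Gh) was 14.15 to 14.28 on the log2 scale in Pit1+/+ and 7.15 to 10.3 in Pit1dw/dw, and thyrotropin beta (Tshb) was 11.67 to 12.29 against 6.20 to 7.01. For Pit1+/+ pool 1, the genotype field differs from the other labels, which name Pit1+/+. Its Gh (14.22) and Tshb (11.9) lay in the range of the other Pit1+/+ pools, and it was counted as Pit1+/+. A probe set named for Pit1 (Pou1f1) was not analysed here. Pools also differed in genes taken as markers of tissue around the gland. The sensory neuron gene Prph was above 7 in Pit1+/+ pool 3 and in Pit1dw/dw pools 2 and 3. The mean of 11 mesenchyme and meninges genes was 8.09 to 9.86 in Pit1+/+ and 9.15 to 9.87 in Pit1dw/dw, and that of 6 bone and cartilage genes was 4.19 to 7.03 and 5.59 to 7.31. In pooled tissue RNA, fewer cells of a type and less RNA per cell cannot be told apart.

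Group means were compared with limma, with p-values adjusted by Benjamini-Hochberg over all 18193 genes and a threshold of 0.05. None of the 9 genes passed in Pit1dw/dw against Pit1+/+. In this fit 0 of 9 had an unadjusted p under 0.05, against 8.46% of all genes. Its spread was estimated with 5 further arrays that are not reported here, and unadjusted counts and intervals can depend on them. Of all genes 0.77% passed, 0.165% higher and 0.605% lower in Pit1dw/dw. No member had groups without overlap (0 of 9), against 2.78% of all genes. The median difference of the 9 genes was 0.22 on the log2 scale, and that of all genes was -0.02. With 0 called of 9 beside a background under 1%, the count is near the background and is no result about the list. What follows gives each gene's level and the size of difference that 5 pools a group leave possible.

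**Figure D1:**
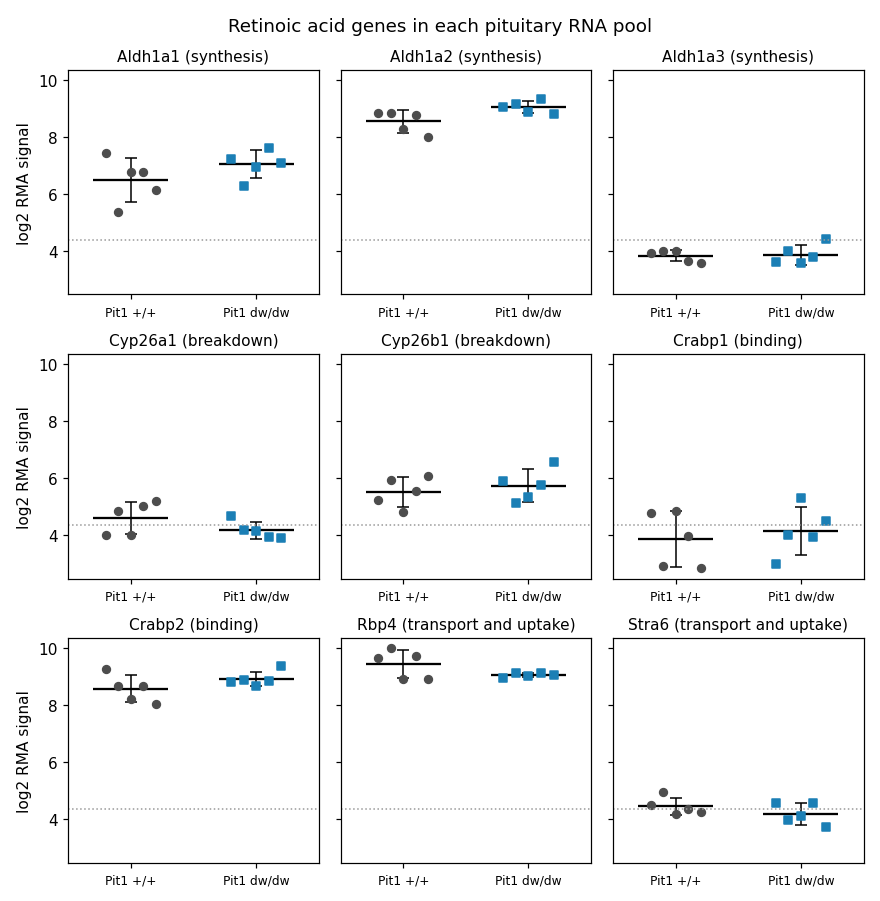
Each panel shows 1 gene, with the log2 RMA signal of every pool (points, pools 1 to 5 from left to right), the group mean (line) and the SD over 5 pools (bar), and a dotted line at the median of all values on the arrays (4.37). The Pit1+/+ and Pit1dw/dw pools overlap for all 9 genes.

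Of the transport and uptake genes, Rbp4, which encodes the retinol carrier of blood plasma, was well above the median of all values in each pool. Its log2 signal was 9.65, 9.999, 8.93, 9.72 and 8.93 in Pit1+/+ pools 1 to 5 and 8.96, 9.12, 9.02, 9.12 and 9.07 in Pit1dw/dw. Pit1+/+ pools 1, 2 and 4 were above every Pit1dw/dw pool, and pools 3 and 5 below every one. The spread was small in Pit1dw/dw (SD 0.07, n = 5) and larger in Pit1+/+ (SD 0.49, n = 5). Pit1dw/dw minus Pit1+/+ was -0.39 (SE 0.20), with a 95% interval from -0.82 to 0.04 (adjusted p = 0.657 by limma). Over 24 alternatives the adjusted p of Rbp4 ran from 0.0754, with array weights, to 0.871 by limma.

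Stra6, the gene of the receptor that takes up retinol from its carrier, was dim, around the median of all values on the arrays (4.37). It was 4.51, 4.96, 4.20, 4.35 and 4.26 in Pit1+/+ and 4.59, 3.97, 4.13, 4.59 and 3.73 in Pit1dw/dw, and the groups overlapped. The difference was -0.26, with a 95% interval from -0.68 to 0.16 (adjusted p = 0.827 by limma).

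Of the synthesis genes, Aldh1a2 encodes the retinaldehyde dehydrogenase that makes most retinoic acid in the early embryo. Its log2 signal was 8.84, 8.85, 8.26, 8.77 and 8.003 in Pit1+/+ pools 1 to 5 and 9.04, 9.17, 8.87, 9.34 and 8.82 in Pit1dw/dw. The groups overlapped only where the lowest Pit1dw/dw pool, 5, lay below Pit1+/+ pools 1 and 2. Pit1dw/dw minus Pit1+/+ was 0.50 (SE 0.25), with a 95% interval from -0.03 to 1.03. Its unadjusted p of 0.061 was the lowest of the 9 genes, and it did not pass (adjusted p = 0.631 by limma, 0.297 to 0.864 over 24 alternatives). With only the groups compared in the fit the difference was again 0.50, with a smaller SE of 0.18 (adjusted p = 0.412 by limma). The interval and the unadjusted p of Aldh1a2 thus depend on the arrays not reported here.

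Aldh1a3, a further retinaldehyde dehydrogenase gene, was dim in both groups. The brightest of its 3 probe sets read 3.93, 4.02, 4.00, 3.66 and 3.59 in Pit1+/+ and 3.60, 4.00, 3.57, 3.77 and 4.42 in Pit1dw/dw. Of these 10 values, 9 were below the median of all values on the arrays, so a difference can be understated. It was 0.03, with a 95% interval from -0.40 to 0.47 (adjusted p = 0.99 by limma). The other 2 probe sets gave -0.07 and -0.06, and none of the 3 passed over all probe sets.

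Aldh1a1, the third synthesis gene, varied most among pools of 1 group after Crabp1. It was 7.42, 5.35, 6.77, 6.76 and 6.13 in Pit1+/+ pools 1 to 5 and 7.24, 6.29, 6.95, 7.63 and 7.09 in Pit1dw/dw. The spread in Pit1+/+ (SD 0.78, n = 5) was larger than the difference between the group means, 0.55, whose 95% interval ran from -0.26 to 1.37 (adjusted p = 0.793 by limma).

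The pools high in Aldh1a1 were pools high in mesenchyme and meninges genes. As deviations from the group means of the 10 pools, Pearson's r with the mean of the 11 genes was 0.975 and Spearman's rho 0.988. The permutation p-values within groups were 0.00014 and 0.00026, and after adjustment over 90 relations (9 genes, 10 marker lists) 0.0126 and 0.0234. Without the 2 pools farthest from the median of the marker mean r was 0.962. The 10 pools were looked at by themselves after the values were seen. Over all 15 arrays of the fit, 5 of which are not reported, r was 0.749 and rho 0.689, and neither passed after adjustment (0.136 and 0.297). All of the marker genes but Lum, Foxd1, Twist1 and Slc6a13 were above 8 in each of the 10 pools. With their mean as a covariate the difference of Pit1dw/dw from Pit1+/+ in Aldh1a1 went from 0.55 to -0.06 (adjusted p = 0.999 by limma). Of the 11 marker genes in that mean 1 itself passed between these groups, the prostaglandin D synthase gene Ptgds, which was higher in Pit1dw/dw (2.10, adjusted p = 0.0422 by limma). Aldh1a1 also varied within groups of the 10 pools with the macrophage genes (r = 0.743, rho = 0.782) and the endothelium genes (r = 0.61, rho = 0.588). By permutation none of these passed after adjustment over 90 relations (0.385 and 0.406 for the first, 0.396 and 0.54 for the second). The part of surrounding tissue in the Aldh1a1 levels was not tested.

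**Figure D2:**
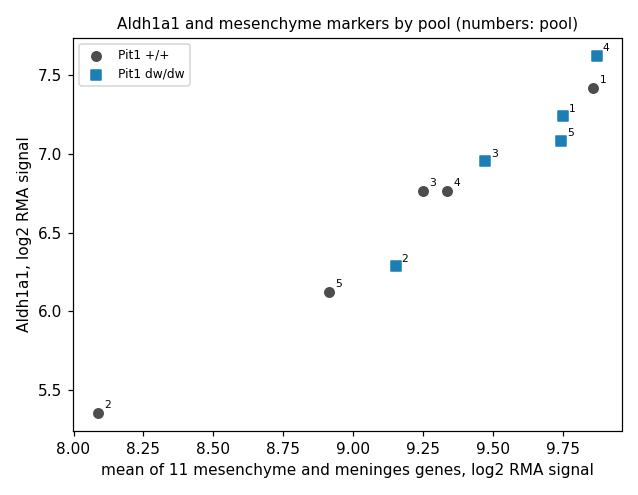
Each point is 1 pool (numbers give the pool), with the mean log2 RMA signal of 11 mesenchyme and meninges genes on the x axis and Aldh1a1 on the y axis. The Pit1+/+ and Pit1dw/dw pools lie along 1 rising line (r = 0.975 over 10 pools as deviations from the group means), from Pit1+/+ pool 2 (5.35) to Pit1dw/dw pool 4 (7.63).

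Of the binding genes, Crabp1 is known from neural crest and embryonic mesenchyme, and its protein binds retinoic acid in the cytoplasm. Its signal was 4.76, 2.92, 4.85, 3.97 and 2.84 in Pit1+/+ pools 1 to 5 and 3.00, 4.01, 5.31, 3.94 and 4.51 in Pit1dw/dw, with 6 of these 10 values below the median of all values. The groups overlapped widely, and the spread was the largest of the 9 genes (SD 0.97 and 0.85, n = 5 each). The difference was 0.29, with a 95% interval from -0.70 to 1.27 (adjusted p = 0.951 by limma). Pool 3 was the highest of each group, and both of these pools had Prph above 7. With the ganglion and Schwann genes the relation of Crabp1 within groups was r = 0.731 and rho = 0.842 over the 10 pools (permutation p = 0.00518 and 0.00311). With the pituitary progenitor genes it was r = -0.883 and rho = -0.891 (permutation p = 0.00462 and 0.002). None of these passed after adjustment over 90 relations (0.155 and 0.07 for the first, 0.155 and 0.06 for the second), and r without the 2 farthest pools was 0.516 and -0.801.

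Crabp2, the other binding gene, whose protein carries retinoic acid to its nuclear receptors, was well above the median of all values. It was 9.29, 8.69, 8.24, 8.67 and 8.05 in Pit1+/+ and 8.82, 8.89, 8.67, 8.86 and 9.36 in Pit1dw/dw. The groups overlapped, with Pit1+/+ pool 1 above 4 of the 5 Pit1dw/dw pools. The difference was 0.33, with a 95% interval from -0.13 to 0.80 (adjusted p = 0.768 by limma).

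Of the breakdown genes, Cyp26a1 is known to be induced by retinoic acid itself, and its promoter holds the DR5 printed above. It was 4.02, 4.83, 3.99, 5.02 and 5.19 in Pit1+/+ and 4.67, 4.17, 4.14, 3.95 and 3.91 in Pit1dw/dw. Pit1+/+ pools 2, 4 and 5 were above every Pit1dw/dw pool, and pools 1 and 3 lay within their range. Of the 10 values 6 were below the median of all values on the arrays, 4 of them in Pit1dw/dw, so a difference can be understated. The difference was -0.44 (SE 0.31), with a 95% interval from -1.11 to 0.23 (adjusted p = 0.802 by limma). Within groups Cyp26a1 was related to the oral epithelium genes by rank (rho = 0.939 over 10 pools, permutation p = 0.00103, adjusted over 90 relations 0.0464) and did not pass by Pearson's r (0.859, permutation p = 0.00822, adjusted 0.185, and 0.801 without the 2 farthest pools). Over all 15 arrays of the fit neither passed (r = 0.66, rho = 0.654, adjusted 0.341 and 0.303). The mean of those 4 marker genes was 3.44 to 3.77 in the 10 pools, below the median of all values.

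Cyp26b1, whose enzyme clears retinoic acid in many embryonic tissues, was 5.23, 5.95, 4.80, 5.53 and 6.09 in Pit1+/+ and 5.90, 5.12, 5.33, 5.77 and 6.58 in Pit1dw/dw. The groups overlapped in part: Pit1+/+ pool 3 lay below every Pit1dw/dw pool, and Pit1dw/dw pool 5 above every Pit1+/+ pool. The difference was 0.22, with a 95% interval from -0.43 to 0.87 (adjusted p = 0.936 by limma).

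**Figure D3:**
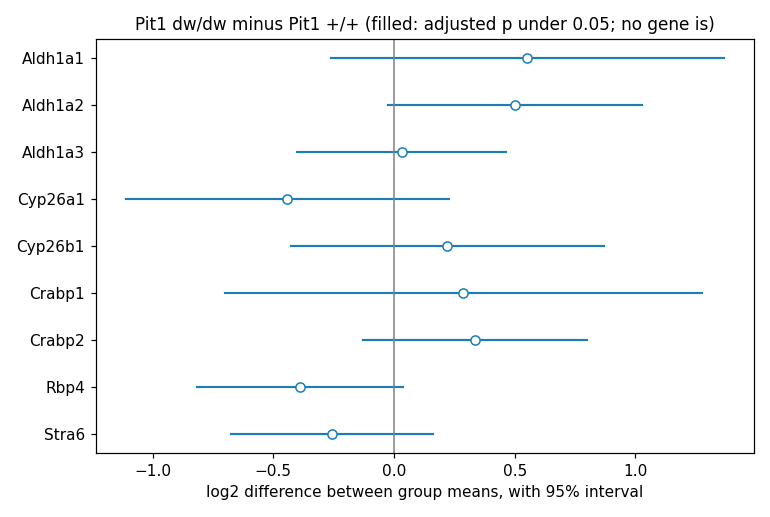
For each gene, the point gives the log2 difference of Pit1dw/dw from Pit1+/+ and the bar its 95% interval from limma. The intervals are those of the main fit, whose spread also draws on the arrays not reported here. In that fit all 9 include 0, and the widest is that of Crabp1, from -0.70 to 1.27.

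The members were also set against each other, as a description over the 10 pools. Aldh1a2 and Rbp4 varied together within groups (r = 0.853 as deviations from the group means). Rbp4 had an SD of 0.49 in Pit1+/+ and 0.07 in Pit1dw/dw, so this r rests mostly on the Pit1+/+ pools. Over the pools as measured r was 0.188, and the group means of the 2 genes differ in opposite directions. Crabp1 and Cyp26a1 varied against each other (r = -0.777 within groups). These were the highest and the lowest values among all pairs of members, and all pairs share the same pools and normalisation.

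Other genes of the pathway were taken from 3 lists. The first held 26 measured genes tied to the handling of retinol and related compounds, and 0 of them passed by limma. At an unadjusted p under 0.05 there was 1 (3.85%), against 8.46% of all genes, and the median difference was 0.08. Of 14 measured genes known to respond to retinoic acid, such as Hoxb1, Meis2 and Tgm2, 0 passed by limma. At an unadjusted p under 0.05 there was 1 (7.14%), against the same 8.46%, and the median difference was -0.06. Hoxa4, Hoxa5, Hoxb1, Hoxb2, Hoxb4, Hoxb5 and Cdx1 had means below the median of all values in both groups. So had genes of the first list, such as Rbp3, Adh4 and Rpe65. In such dim genes a fall can be missed or understated.

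Of 7 measured receptor and corepressor genes, 1 fell and 0 rose in Pit1dw/dw by limma, against 0.605% lower and 0.165% higher of all genes. The gene that fell was Rxrg, a retinoid X receptor gene. Its signal was 6.13, 6.34, 5.99, 6.27 and 5.52 in Pit1+/+ pools 1 to 5 and 3.37, 3.82, 4.62, 3.64 and 3.44 in Pit1dw/dw, with no overlap. Rxrg fell 4.83-fold (log2 difference -2.27, SE 0.29, adjusted p = 0.000947 by limma), and it passed in all 24 alternatives, with differences from -2.58 to -2.17. Of the 5 Pit1dw/dw values 4 were below the median of all values on the arrays, so the fold can be understated. The other 6 genes, Rara, Rarb and Rarg among them, did not pass, and the median of the 7 was 0.07. At an unadjusted p under 0.05 there were 2 of 7 (28.6%), against 8.46% of all genes. These were Rxrg and the corepressor gene Nrip1, which was named after its value was seen. The same 2 genes had groups without overlap, against 2.78% of all genes. Nrip1 differed by 0.30 with no overlap between the groups (adjusted p = 0.423 by limma), as read by its brightest probe set. Its other probe sets gave differences from 0.04 to 0.54, all with overlap, and none passed over all probe sets.

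For each member the 3 genes most alike over the 10 pools were taken by Pearson's r, among 11783 genes with a mean above the median of all values. This is a description of 10 values per gene, chosen as the highest of many. Aldh1a1 was most like Itm2a (r = 0.983), F13a1 (0.981) and Ogn (0.978), and as deviations from the group means r was 0.981, 0.981 and 0.973. Ogn encodes a matrix proteoglycan and F13a1 the catalytic subunit of coagulation factor XIII. Aldh1a2 was most like Amot (0.97), Atp2a1 (0.961) and Epha3 (0.948), with 0.957, 0.931 and 0.915 within groups. Rbp4 was most like Galnt2 (0.965), Sec13 (0.957) and Golm1 (0.952), genes of the secretory pathway, with 0.951, 0.94 and 0.943 within groups. Crabp1 was most like Rab35, Kcnj10 and Rab31 (r from 0.929 to 0.955), and Crabp2 most like Agtrap, Eef1d and Bdh2 (0.905 to 0.959). For Cyp26a1 they were Sik1, Pam and 4930570G19Rik (0.937 to 0.941), and for Cyp26b1 Cbr4, Rbm47 and Tfb2m (0.922 to 0.954). For Aldh1a3 they were Pdzd4, Tubd1 and Ndufaf2 (0.892 to 0.931), and for Stra6 Thap1, Socs6 and Phf3 (0.929 to 0.947). No member was among the 3 genes most like another member, but Aldh1a3 and Stra6, with means not above that median, were not candidates.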

How the data were processed

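Each array holds RNA of 1 pool. The deposited values are log2 signals that the authors made with RMA, per the submitters' processing notes (background correction, quantiles between arrays, 1 value per probe set). No version of it is stated. The values lie between 1.83 and 14.8, with array medians of 4.31 to 4.43. Precision is limited by the number of arrays.

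Groups follow the sample titles. The fit used 15 arrays: the 10 described and 5 of a further group, which share in the estimate of the spread and are not reported here. Of 45101 probe sets, 64 are controls and 34945 name 1 gene in the platform annotation (932 several, 9160 none). For each of 18193 genes the probe set brightest on average over the 15 arrays was used. Group means were fitted by lmFit and eBayes of limma 3.58.1 under R 4.3.3 (two-sided tests), and the procedure was tested on simulated data. Replicate numbers were not used to pair the pools in the main fit, and the labels do not say whether they name pairs. Permutation tests drew 100000 reorderings of pools within groups, two-sided.

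The members, lists and alternatives were chosen with earlier results of these data known. The text names all 9 members, retinoid list genes past the threshold (up to 4 per list), Gh and Tshb, and the 3 genes most like each member, here over the 10 pools described instead of all 15 arrays. The alternatives were 14 other settings of the fit and leaving out each of the 10 pools in turn.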

Additional observations from a re-analysis of the deposited data

How the results depend on the processing

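The count of members called was 0 in all 24 alternatives, and the fall of Rxrg passed in all 24. Of the 9 members, Aldh1a2, Cyp26a1, Cyp26b1, Crabp2, Rbp4 and Stra6 kept the sign of their difference throughout. Sizes moved by over 1.5 times in 5 of these 6: Cyp26b1 from 0.22 to 0.0102 without Pit1dw/dw pool 5 and 0.0408 without Pit1+/+ pool 3 (0.0102 to 0.386 over all alternatives), Crabp2 from 0.33 to 0.0582 with array weights (to 0.51 without Pit1+/+ pool 1), Stra6 from -0.26 to -0.126 with ganglion and bone covariates and -0.131 without Pit1+/+ pool 2, Cyp26a1 from -0.44 to -0.216 with ganglion and bone covariates, and Rbp4 from -0.39 to -0.252 without Pit1+/+ pool 2. In the other direction Rbp4 was -0.526 without the pools with Prph above 7 and -0.521 with array weights. The adjusted p of the latter, 0.0754 by limma, was the lowest of any member in the alternatives. Crabp1 has no value without the probe sets of suffix _x_at, _s_at and _a_at, since its only one has such a suffix. With the replicate number as a block the count of members was 0 and that of all genes 137. Same-numbered pools correlated at -0.238 to 0.543 as deviations from their group means, and 4 of 10 pools were closest to the pool of their own number. The count over all genes was 140, but 571 with array weights, 77 with the mesenchyme covariate, 51 without the pools with Prph above 7 and 83 to 161 with 1 pool left out (86 without Pit1+/+ pool 2 or 4, and 83, 93 and 90 without Pit1dw/dw pool 2, 4 and 5). The causes were not tested. Differences that did not pass changed sign in 3 genes. Aldh1a3 was -0.0301 with the mean of its probe sets and -0.0265 with ganglion and bone covariates, and -0.105 to 0.107 with 1 pool left out (-0.0140 without Pit1+/+ pool 4, -0.0296 without pool 5). Crabp1 was -0.00117 with array weights, -0.0793 with ganglion and bone and -0.0916 with mesenchyme covariates, and -0.0034 to 0.575 with 1 pool left out. Aldh1a1 was -0.0639 with the mesenchyme covariate. It was 0.142 with array weights, 0.901 without the pools with Prph above 7, and 0.269 to 0.786 with 1 pool left out.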
